A study of Mus musculus with 6 samples.

Results

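The enzymes of the tricarboxylic acid (TCA) cycle and those that make or use 2-oxoglutarate were followed at 9 genes: Idh3a, Idh3b, Idh1, Idh2, Glud1, Ogdh, Fh1, Mdh2 and Cs. They are 9 of the 18193 genes named by probe sets with a single gene symbol. Every probe set whose platform annotation gave exactly 1 symbol, and that symbol one of these, was taken, which made 21 of the 45101 on the array. None of the probe sets annotated with several genes named a member. The cells were LSK cells, bone marrow cells without mature lineage markers that carry Sca-1 and Kit and include the haematopoietic stem cells, sorted by flow cytometry from mice aged 6 months. There were 3 WT and 3 Tet1 KO samples with 1 Affymetrix array each, the strain is labelled CD57BL/6 for both groups, and genotype is the only difference the labels give. How the Tet1 allele was disrupted, and whether in all cells or only in blood, the sources used here do not say. The labels number the samples without tying them to separate mice, so the p-values measure only the spread between these samples.

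The TCA cycle oxidises acetyl groups from pyruvate, fatty acids and amino acids in mitochondria and feeds electrons to the respiratory chain. 2-Oxoglutarate is an intermediate of the cycle, made from isocitrate or from glutamate. It is also the cosubstrate of Tet enzymes, which use it with oxygen and iron to oxidise 5-methylcytosine in DNA, releasing succinate. Succinate and fumarate, which arise further along the cycle, can inhibit enzymes of this dioxygenase class. The messenger RNA of the enzymes was measured here, not the metabolites.

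At all 4 Tet1 probe sets the Tet1 KO readings were below the WT readings with no overlap, and the means were lower by 0.93 to 1.68 on the log2 scale. The 6 arrays had medians within 0.0694 of each other, but Tet1 KO replicate 2 stood apart: its correlation with the others over all probe sets was at most 0.944, while each of the other 5 reached at least 0.976 with its closest array. Its brightest bacterial control probe set read 4.87, against at most 4.37 elsewhere. WT replicate 3 and Tet1 KO replicate 3 read 4.58 and 3.82 for Xist, the RNA of the inactive X chromosome. The other 4 arrays read at least 11.78, so each group held 1 array low in Xist. The Y-linked genes Kdm5d, Eif2s3y and Uty read 8.30, 8.01 and 5.70 on WT replicate 3. On Tet1 KO replicate 3 they read 9.16, 7.39 and 5.13, and on the other arrays at most 3.65, 3.19 and 3.19. By these genes each group mixed male and female samples. Of the genes that define the sort, Kit read between 9.68 and 10.02 on all arrays, and Ly6a, which encodes Sca-1, was not analysed here. Of 6 genes listed for LSK cells and measured, 3 had lower and 3 higher means in Tet1 KO. Flt3, Slamf1 and Procr ran from 9.5 to 11.5, 5.8 to 8.0 and 8.6 to 10.0 in Tet1 KO. In WT they ran from 10.0 to 10.6, 5.6 to 6.0 and 9.2 to 9.4. Kit, Cd34 and Meis1 varied less among the Tet1 KO arrays. Of the lists for other cells, all 7 T cell genes had higher means in Tet1 KO, with summed log2 levels of 30.4 to 33.2 in WT and 32.7 to 34.8 in Tet1 KO. For 4 of them, Cd2, Cd3d, Cd3e and Cd3g, the mean lay under 4.39, the mean over arrays of the brightest bacterial control, used as a guide to background. The 5 megakaryocyte genes, 2 lower and 3 higher, gave sums that did not overlap, 31.6 to 33.1 in WT and 33.3 to 34.4 in Tet1 KO. Of these genes only Ppbp had groups without overlap, with 6.44 on Tet1 KO replicate 3 and 4.37 to 4.82 on the other arrays. Sums overlapped for 6 B-lineage genes, 29.7 to 30.9 in WT and 29.7 to 31.3 in Tet1 KO. For 5 erythroid genes they were 23.6 to 24.1 in WT and 23.4 to 25.5 in Tet1 KO, also with overlap. Single genes of the B-lineage, T cell and erythroid lists nevertheless had groups without overlap. Pax5, Cd8a, Cd3g and Epb42 were higher in Tet1 KO, Pax5 by 0.42 and Cd8a by 0.53, and Alas2 was lower. Of all probe sets tested, 16.2% had groups without overlap. Granulocyte and monocyte genes summed to 48.0 to 51.5 over 7 genes in WT and 48.7 to 53.9 in Tet1 KO, and the part of these lists in the results was not tested. In RNA from sorted cells, fewer cells of a type and less RNA per cell cannot be told apart.

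None of the 21 probe sets passed the test for a difference between the genotypes. With limma on all 45037 probe sets other than controls, 0 of 21 had a Benjamini-Hochberg adjusted p under 0.05, and over the whole array 0, or 0%, did. At an unadjusted p under 0.05 the members again gave 0, while 3065 probe sets, or 6.81%, passed over the array. Limma with an intensity trend also called 0 members. The smallest unadjusted p among the members was 0.0542, at an Ogdh probe set, with an adjusted p of 0.686. The 4 Tet1 probe sets did not pass the limma threshold either, each with an adjusted p of 0.686. Failing this test therefore does not show that a gene was unchanged. An exact permutation test of 3 arrays against 3 cannot go below 0.1.

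Of the 21 probe sets, 14 had a lower mean in Tet1 KO and 7 a higher one, and their median difference was -0.18 on the log2 scale (Tet1 KO minus WT). Over all probe sets tested, 42.9% had a lower mean, and the median difference was 0.06. The difference between genotypes moved with signal level over the array. It had a median of 0.16 among the 16257 probe sets under the bacterial control level, and of -0.11 among the 6623 with a mean level of 8 or more. All 21 member probe sets lay above the bacterial control level, and 12 had a mean of 8 or more. Of these 12, 9 were lower, with a median of -0.24, beside 67.5% of the 6623. The part of this trend in the members' median was not tested directly. After cyclic loess, which levels trends with signal between arrays, the median of the 21 was -0.064. Without Tet1 KO replicate 2 it was -0.030.

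**Figure D1:**
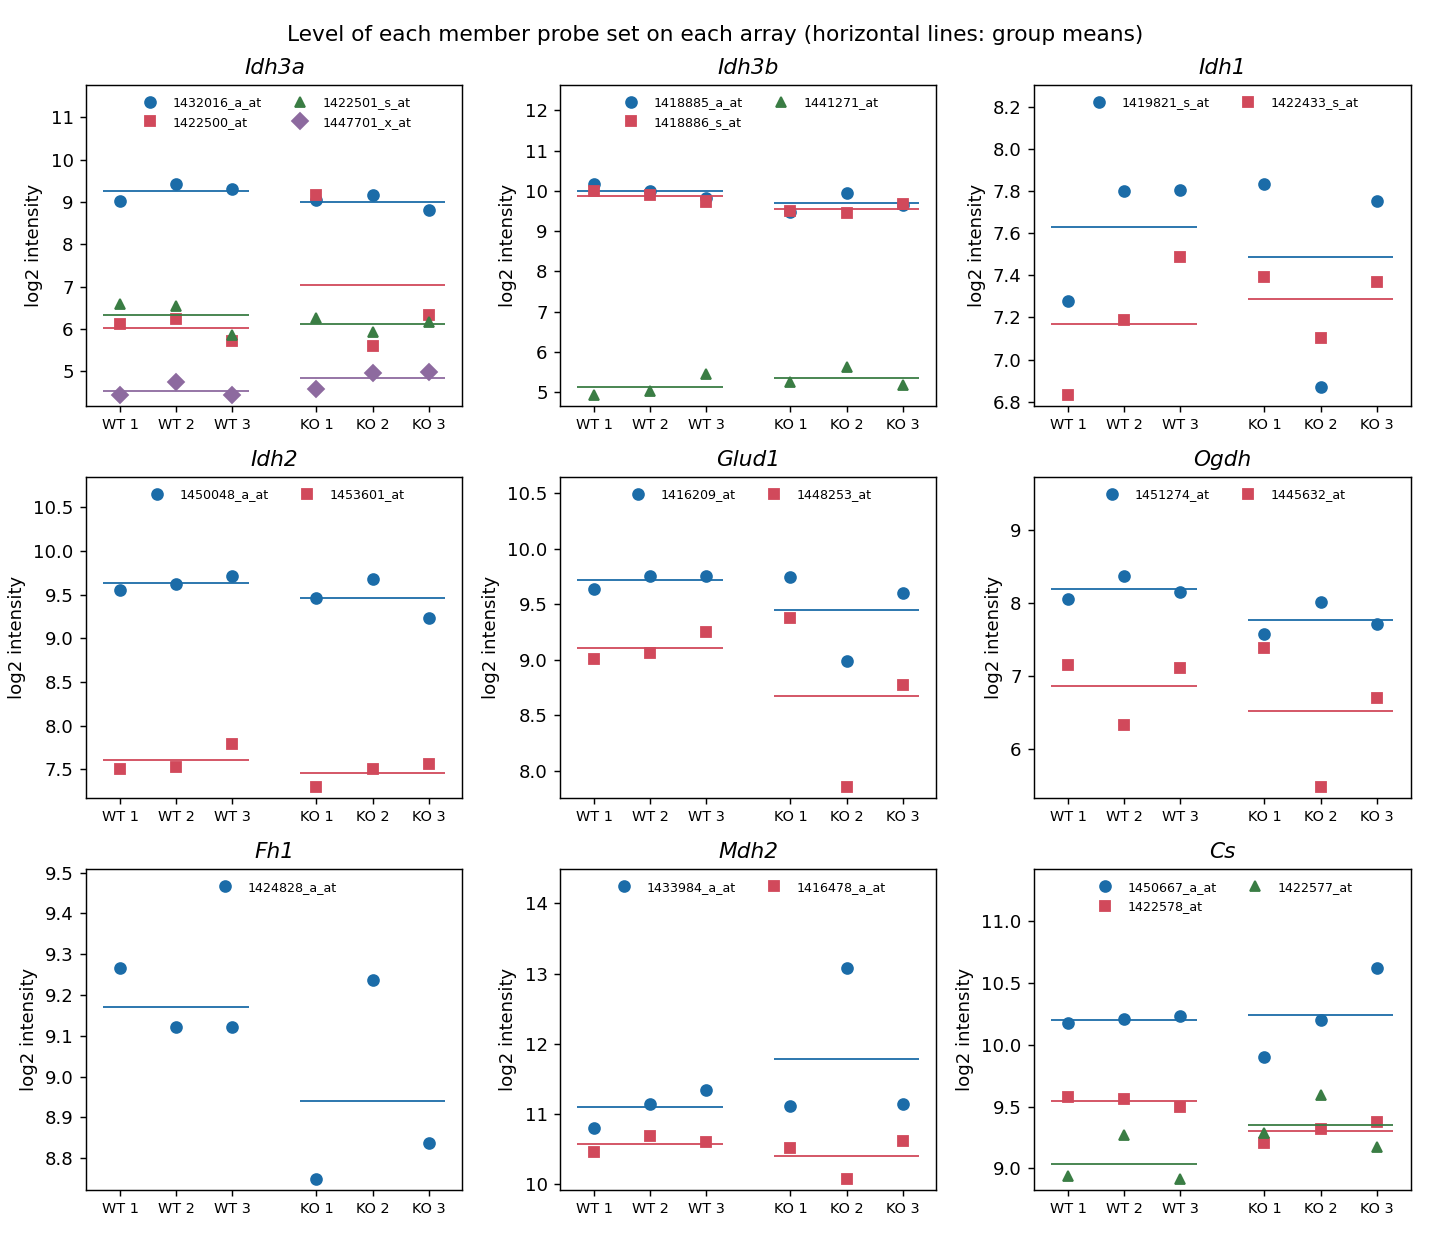
Log2 intensity of the 21 member probe sets (vertical axis) on the 3 WT and 3 Tet1 KO arrays (horizontal axis), with a panel for each gene, a colour and symbol for each probe set and a line at each group mean. Single Tet1 KO arrays stand far from the rest at Idh3a 1422500_at, at 9.16, and at Mdh2 1433984_a_at, at 13.08, and the vertical axes differ between panels.

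At 3 probe sets, of Idh3b, Ogdh and Cs, the highest Tet1 KO reading was below the lowest WT reading, and at 0 the reverse held. They made 14.3% of the 21. Over all probe sets tested 16.2% had no overlap, 6.29% with Tet1 KO lower and 9.96% with Tet1 KO higher. Of the probe sets with a mean level of 8 or more, 13.8% had no overlap with Tet1 KO lower, and of the 12 members at that level 2 did, or 16.7%, which is near that share. The gaps between the groups were small, at 0.05 for Idh3b, 0.04 for Ogdh and 0.12 for Cs. With quantile normalization Cs was the 1 probe set of these that kept the groups apart, and with cyclic loess none did, though all 3 kept a lower mean in Tet1 KO.

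The promoters of these 3 genes are shown because they hold the probe sets at which the groups did not overlap. Each sequence is from RefSeq, build GRCm38.p6, written 5′ to 3′ on the gene's own strand from 250 bases before to 50 after the annotated start. Capitals mark matches on either strand to the letters CCAAT (the CAAT box), CCGGAAG (a site of ETS factors) or GGGGCGGGG (a site of Sp factors). The Idh3b window is chr2:130284402-130284701 on the minus strand, that of Ogdh is chr11:6291347-6291646 on the plus strand, the first of 6 annotated starts, and that of Cs is chr10:128337477-128337776 on the plus strand.
Idh3b: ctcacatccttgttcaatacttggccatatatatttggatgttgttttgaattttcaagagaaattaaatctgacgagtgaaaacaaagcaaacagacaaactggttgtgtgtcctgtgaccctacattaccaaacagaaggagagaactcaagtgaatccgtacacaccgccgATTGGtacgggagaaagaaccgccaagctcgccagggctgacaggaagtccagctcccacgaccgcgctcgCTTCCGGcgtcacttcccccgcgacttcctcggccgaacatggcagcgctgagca
Ogdh: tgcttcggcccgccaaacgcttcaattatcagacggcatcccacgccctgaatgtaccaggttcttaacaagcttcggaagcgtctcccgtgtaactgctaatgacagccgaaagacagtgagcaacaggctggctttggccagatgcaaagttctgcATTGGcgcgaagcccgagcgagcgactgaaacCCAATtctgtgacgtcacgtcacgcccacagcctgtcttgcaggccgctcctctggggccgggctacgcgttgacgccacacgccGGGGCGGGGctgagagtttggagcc
Cs: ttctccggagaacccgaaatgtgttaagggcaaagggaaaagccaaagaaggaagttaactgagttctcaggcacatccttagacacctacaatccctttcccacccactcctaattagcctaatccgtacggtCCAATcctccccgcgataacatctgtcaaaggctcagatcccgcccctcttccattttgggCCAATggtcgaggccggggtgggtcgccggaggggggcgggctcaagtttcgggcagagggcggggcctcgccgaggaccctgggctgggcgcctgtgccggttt
The Idh3b window held 1 CCAAT and 1 CCGGAAG, the Ogdh window 2 CCAAT and 1 GGGGCGGGG, and the Cs window 2 CCAAT. The CAAT box was found in 37.4% of 32817 promoter windows of the same length, CCGGAAG in 8.86% and GGGGCGGGG in 11.4%. The 3 windows held 18, 25 and 18 CpG dinucleotides, in the order above, beside a median of 7 over all windows and an upper quartile of 20.

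Of the 9 members, 8 matched a promoter in the table, over 14 windows, and their CpG number ran from 11 at 2 of the Ogdh starts to 51 at Glud1. A CCAAT was present in at least 1 window of 6 of the 8 genes and a GGGGCGGGG in 4. These counts are by gene over any of its windows, while the shares of all windows are by window, so they are not directly comparable. CCGGAAG occurred in the windows of Idh3b and Glud1. CACGTG (E-box), held by 7.15% of all windows, occurred in the windows of 1 gene, Ogdh, at 3 of its starts. No match was found in these windows to the NRF1 motif (4.59% of all windows), to AAGATGGCG for YY1 (1.4%) or to TCAAGGTCA for the estrogen-related receptors (0.424%), which says only that these letters are absent there. CCAAT is the commonest of these motifs in the background as well as in the members. The data hold no measurement of binding or methylation at these windows.

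Idh3a and Idh3b encode subunits of the mitochondrial NAD-dependent isocitrate dehydrogenase, which makes 2-oxoglutarate and NADH in the cycle. At Idh3b, probe set 1418886_s_at read 10.00, 9.91 and 9.72 on WT replicates 1 to 3 and 9.51, 9.44 and 9.67 on Tet1 KO replicates 1 to 3. The groups did not overlap, and the closest arrays were WT replicate 3 and Tet1 KO replicate 3. The means were 9.88 ± 0.14 and 9.54 ± 0.12 (SD, n = 3 each), so Tet1 KO minus WT was -0.34 (SE 0.15), which did not pass the test (limma, unadjusted p = 0.068, Benjamini-Hochberg adjusted p = 0.686). Its 95% interval ran from -0.70 to 0.03.

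The other bright Idh3b probe set, 1418885_a_at, gave a similar difference of -0.31 (SE 0.19), but with overlap. It read 10.18, 10.00 and 9.83 in WT and 9.48, 9.95 and 9.64 in Tet1 KO. Here Tet1 KO replicate 2 lay inside the WT range, while the same array was the lowest of the 6 at 1418886_s_at. Without Tet1 KO replicate 2 its difference was -0.44, with an unadjusted limma p of 0.0366 and an adjusted p of 0.620, and over all 17 alternatives its adjusted p lay between 0.595 and 0.902. The dim remaining probe set, 1441271_at, for which the annotation lists no accession, read 4.93 to 5.45 in WT and 5.17 to 5.64 in Tet1 KO, which differed by 0.22 (SE 0.21). The direction at Idh3b thus differed between the 2 bright probe sets and the dim one.

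Idh3a, the catalytic subunit gene, had 4 probe sets that went both ways. The brightest, 1432016_a_at, read 9.03, 9.43 and 9.30 in WT and 9.03, 9.16 and 8.80 in Tet1 KO, which differed by -0.25 (SE 0.18). Tet1 KO replicate 3 alone lay below the WT range. At 1422500_at the readings were 6.11, 6.24 and 5.70 in WT and 9.16, 5.60 and 6.33 in Tet1 KO. Tet1 KO replicate 1 was therefore 3.14 above the WT mean there, while the other Tet1 KO arrays lay at -0.42 and 0.31. The mean difference of 1.01 (SE 0.86) rested on that array and was -0.057 without it. Tet1 KO replicate 1 showed no such excess at 1422501_s_at, which carries the same accession in the annotation: it read 6.25 there, inside the WT range of 5.85 to 6.59. That probe set differed by -0.22 (SE 0.24). The dimmest, 1447701_x_at, read 4.44 to 4.75 in WT and 4.58 to 4.99 in Tet1 KO, which differed by 0.30 (SE 0.18). Names ending in _x_at mark probe sets with probes that can also match other sequences.

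Idh1 and Idh2 encode NADP-dependent isocitrate dehydrogenases, the first in the cytosol and peroxisomes and the second in mitochondria. They make 2-oxoglutarate and NADPH, and mutant forms in leukaemia make 2-hydroxyglutarate, which inhibits Tet enzymes. At Idh1, 1419821_s_at read 7.28, 7.80 and 7.81 in WT and 7.83, 6.87 and 7.75 in Tet1 KO, which differed by -0.14 (SE 0.30). The highest and the lowest of the 6 readings were both Tet1 KO arrays, and without Tet1 KO replicate 2 the difference was 0.17. The other probe set, 1422433_s_at, read 6.83, 7.19 and 7.49 in WT and 7.39, 7.10 and 7.37 in Tet1 KO, which differed by 0.12 (SE 0.21). All Tet1 KO arrays lay inside the WT range there. The 95% intervals, -0.87 to 0.59 and -0.38 to 0.62, set the size of change that these arrays could not exclude for Idh1.

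Idh2 readings varied less between arrays than those of Idh1, and both Idh2 probe sets had a lower mean in Tet1 KO. Probe set 1450048_a_at read 9.56, 9.62 and 9.71 in WT and 9.46, 9.67 and 9.24 in Tet1 KO, which differed by -0.17 (SE 0.17, 95% interval -0.57 to 0.23). Tet1 KO replicate 2 lay within the WT range and the other 2 Tet1 KO arrays below it. Probe set 1453601_at read 7.50, 7.52 and 7.79 in WT and 7.29, 7.51 and 7.56 in Tet1 KO, which differed by -0.15 (SE 0.16). Tet1 KO replicate 1 alone lay below the WT range. With cyclic loess the Idh2 differences were at most 0.05 in size.

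Glud1 encodes glutamate dehydrogenase, which turns glutamate into 2-oxoglutarate in mitochondria. At 1416209_at the 3 WT arrays read 9.64, 9.76 and 9.75, and the Tet1 KO arrays 9.74, 8.99 and 9.60. At 1448253_at they read 9.01, 9.06 and 9.25 in WT and 9.38, 7.85 and 8.78 in Tet1 KO. Both probe sets were lowest on Tet1 KO replicate 2, at -0.72 and -1.26 relative to the WT mean, and next lowest on Tet1 KO replicate 3. Tet1 KO replicate 1 lay inside the WT range at the first and above it at the second. The mean differences were -0.27 (SE 0.22) and -0.44 (SE 0.37). Without Tet1 KO replicate 2 they shrank to -0.04 and -0.03. Without Tet1 KO replicate 1 the second was -0.79, with an unadjusted limma p of 0.0423 and an adjusted p of 0.486, where the range of its adjusted p over all alternatives was 0.486 to 0.976.

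Ogdh encodes the E1 component of the 2-oxoglutarate dehydrogenase complex, which converts 2-oxoglutarate to succinyl-CoA. At 1451274_at, WT replicates 1 to 3 read 8.05, 8.37 and 8.15, and Tet1 KO replicates 1 to 3 read 7.57, 8.01 and 7.71. The Tet1 KO readings all lay under those of WT, and Tet1 KO replicate 2 came within 0.04 of WT replicate 1. The means were 8.19 ± 0.16 and 7.77 ± 0.22 (SD, n = 3 each). The difference was -0.42 (SE 0.18, 95% interval -0.85 to 0.01), or 1.34-fold higher in WT, and did not pass the test, at a limma adjusted p of 0.686. Without Tet1 KO replicate 2 it was -0.54, with an unadjusted limma p of 0.0152 and an adjusted p of 0.595, and its adjusted p over all alternatives ranged from 0.531 to 0.902. The second Ogdh probe set, 1445632_at, read 7.15, 6.33 and 7.11 in WT and 7.39, 5.48 and 6.71 in Tet1 KO. Tet1 KO arrays were both the highest and the lowest there. Its difference of -0.34 (SE 0.50) became 0.18 without Tet1 KO replicate 2 and 0.07 with array weights, so only 1451274_at kept its direction throughout.

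Fh1 encodes fumarate hydratase, which turns fumarate into malate, and was measured by the single probe set 1424828_a_at. It read 9.27, 9.12 and 9.12 in WT and 8.75, 9.24 and 8.84 in Tet1 KO, which differed by -0.23 (SE 0.18, 95% interval -0.66 to 0.20). Tet1 KO replicates 1 and 3 lay below the WT range and replicate 2 inside it. Without replicate 2 the difference was -0.38, with an unadjusted limma p of 0.0344 and an adjusted p of 0.620, in a range of 0.620 to 0.930 over all alternatives.

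Mdh2 encodes the mitochondrial malate dehydrogenase, which regenerates oxaloacetate. At 1433984_a_at it read 10.80, 11.15 and 11.35 in WT and 11.12, 13.08 and 11.14 in Tet1 KO. Tet1 KO replicate 2 was 1.98 above the WT mean, while the other 2 Tet1 KO arrays were within 0.05 of it. At 1416478_a_at the same array was the lowest of the 6, at 10.07, against 10.46, 10.69 and 10.60 in WT and 10.52 and 10.62 on the other Tet1 KO arrays. The differences of 0.68 (SE 0.54) and -0.18 (SE 0.19) thus had opposite signs, and without that array they were 0.03 and -0.01.

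Cs encodes citrate synthase, which joins acetyl-CoA to oxaloacetate at the entry of the cycle, and its 3 probe sets, all with the same accession in the annotation, disagreed. At 1422578_at the WT arrays read 9.58, 9.56 and 9.49, with an SD of 0.04, and the Tet1 KO arrays 9.21, 9.32 and 9.38. The groups did not overlap, and the difference was -0.24 (SE 0.14, an unadjusted limma p of 0.124 and an adjusted p of 0.686). At 1422577_at the WT arrays read 8.94, 9.27 and 8.91 and the Tet1 KO arrays 9.29, 9.60 and 9.18, a difference of 0.32 (SE 0.19), and WT replicate 2 lay above Tet1 KO replicate 3. At the brightest, 1450667_a_at, the WT arrays read 10.17, 10.21 and 10.23 and the Tet1 KO arrays 9.90, 10.20 and 10.62. The Tet1 KO arrays lay on both sides of the WT range there, and the difference was 0.04 (SE 0.21). The signs at 1422578_at and 1422577_at stayed opposite in all 16 alternatives that measured them, and the setting with 1 probe set per gene kept only 1450667_a_at.

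**Figure D2:**
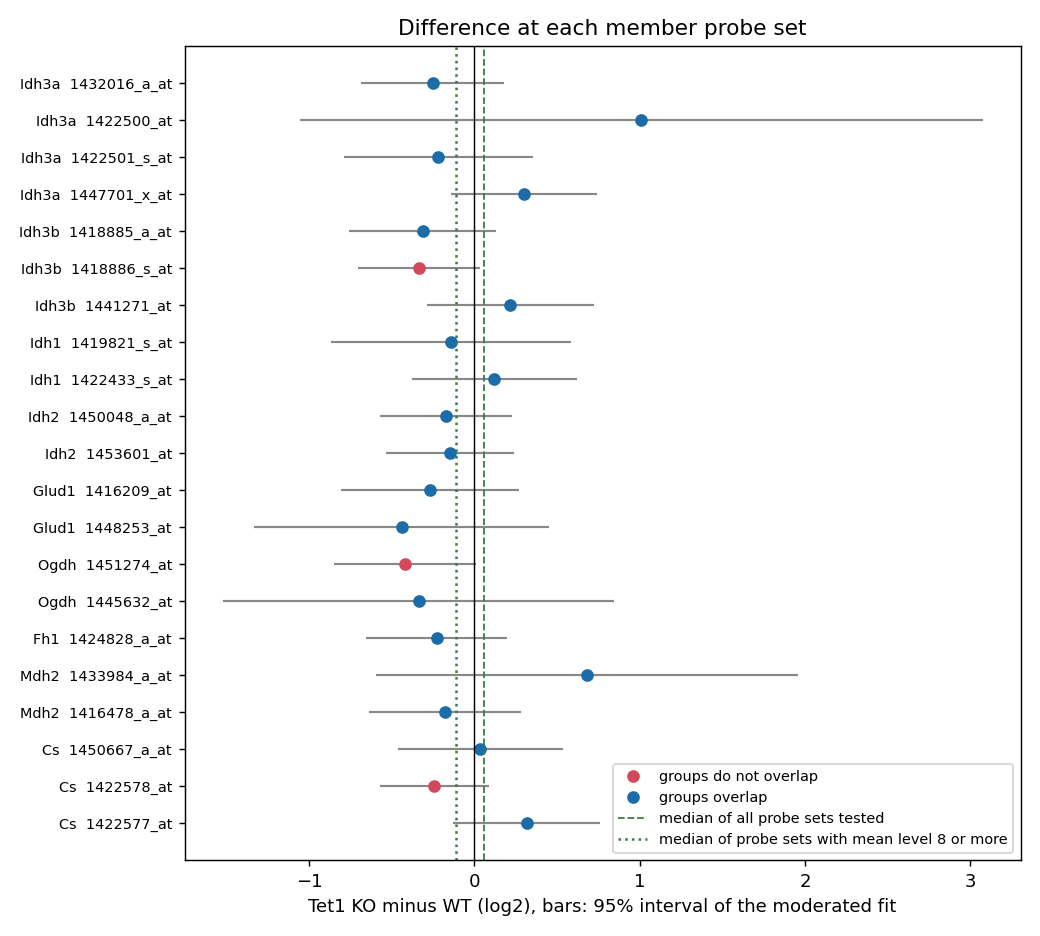
Tet1 KO minus WT difference on the log2 scale (horizontal axis) for each of the 21 probe sets (vertical axis), with 95% intervals of the moderated fit as bars and red points where the groups did not overlap. Every interval includes 0, the one that comes closest being that of Ogdh 1451274_at, from -0.85 to 0.01; the dashed and dotted lines mark the medians of all probe sets tested, 0.06, and of those with a mean level of 8 or more, -0.11.

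Among the members, readings far from the WT mean lay mostly on a pair of the Tet1 KO arrays. Tet1 KO replicate 2 was more than 0.5 from the WT mean at 7 of the 21 probe sets, Tet1 KO replicate 1 at 4 and Tet1 KO replicate 3 at 0. Of the WT arrays, which make up that mean, replicate 2 was so at 1 and the others at 0. Tet1 KO replicates 1 and 2 each gave the highest or lowest reading of the 6 at 10 probe sets, and Tet1 KO replicate 3 at 4. Over the whole array, Tet1 KO replicate 2 did so at 60.5% of probe sets, Tet1 KO replicate 1 at 27.4% and Tet1 KO replicate 3 at 32.9%. The SD of the deviations from the WT mean over all probe sets tested was 0.43, 0.73 and 0.45 on Tet1 KO replicates 1 to 3. By that measure replicates 1 and 3 were alike over the array. The SD among the Tet1 KO arrays was larger than that among the WT arrays at 15 of 21 member probe sets, or 71.4%, beside 71.9% over all probe sets tested. Its median was 0.24 in Tet1 KO and 0.17 in WT for the members.

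**Figure D3:**
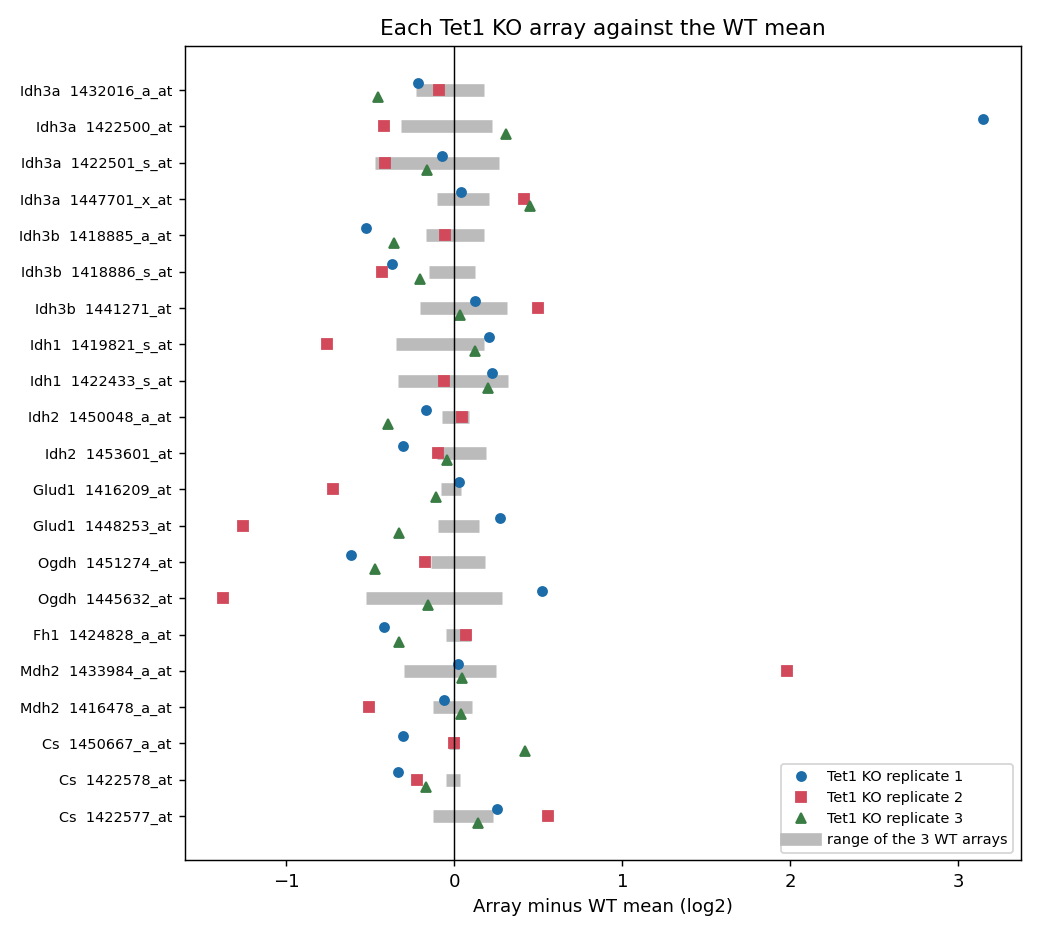
Reading of each Tet1 KO array minus the WT mean (horizontal axis, log2) at the 21 probe sets (vertical axis), with grey bars for the range of the 3 WT arrays. Tet1 KO replicate 2 lies at -1.38 for Ogdh 1445632_at, -1.26 for Glud1 1448253_at and 1.98 for Mdh2 1433984_a_at, and Tet1 KO replicate 1 at 3.14 for Idh3a 1422500_at.

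At their brightest probe sets, 7 of the 9 genes had a lower mean in Tet1 KO, or 77.8%, with a median of -0.23. Of all probe sets tested 42.9% had a lower mean, and of those with a mean level of 8 or more 67.5%. Centred over the 6 arrays, the profile of Idh3b was closest to that of Fh1 among the members, with a root mean square difference of 0.08 log2 units. Idh3a and Idh2 were likewise closest to each other, at 0.11, and Idh1 and Glud1 to each other, at 0.17, the latter pair sharing the low reading on Tet1 KO replicate 2. Mdh2 stood furthest from its nearest member, at 0.70. The mean centred profile of the 9 genes ran from -0.16 on Tet1 KO replicate 1 to 0.12 on WT replicate 2. On Tet1 KO replicate 2 it was 0.09, a mean that includes Mdh2, which lay 1.98 above its WT mean on that array. The mean profile without Mdh2 was not computed. Of 12955 other genes above the bacterial control level, the closest to that mean profile were Elob, which encodes the elongin B adaptor of ubiquitin ligases, at 0.03, Mzt2, at 0.04, and the splicing regulator gene Tra2a, at 0.04. These are descriptions over 6 arrays, and a profile this flat is easily matched.

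Among the other genes of the pathway, 0 of 166 probe sets of 76 genes passed the adjusted limma threshold. At an unadjusted p under 0.05 there were 11 lower in Tet1 KO, of 10 genes, and 0 higher. This was 6.63% lower, where 3.58% of all probe sets and 5.44% of those with a mean level of 8 or more were lower at that level, and 3.23% of all were higher. With 1 probe set per gene the count was 6 of 76, and the share over the array, counted in both directions, 7.21%. Over the 166 probe sets, the count of 11 fell to 7 without WT replicate 2. It rose to 18 without Tet1 KO replicate 1 and to 19 without Tet1 KO replicate 3. The shares over all probe sets, in both directions and 6.81% with every array, were then 3.48%, 10.3% and 8.61%.

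Pyruvate enters the cycle through pyruvate dehydrogenase. Of the 21 probe sets for that step, its kinases and phosphatases, and pyruvate carboxylase, 16 had lower and 5 higher means. Their median difference was -0.20. Pdp2, a phosphatase that activates the complex, was the 1 at an unadjusted p under 0.05. That made 4.76% of the list lower, beside 3.58% of all probe sets tested. Pdp2 read 6.13, 6.65 and 6.24 in WT and 5.36, 5.65 and 5.77 in Tet1 KO, which differed by -0.75 (SE 0.20, an unadjusted limma p of 0.00842 and an adjusted p of 0.686). The groups did not overlap. Pdk4, an inhibitory kinase, differed by -0.42 under the bacterial control level, and on the higher side Pcx, pyruvate carboxylase, by 0.24 (SE 0.17). Pdk1, another such kinase, had 2 lower and 2 higher probe sets, from -0.47 (SE 0.30) at 1423748_at to 0.32 (SE 0.34) at the dimmest, 1434974_at.

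The rest of the cycle gave 17 lower and 12 higher means over 29 probe sets, a median difference of -0.16, and 0 at an unadjusted p under 0.05. Suclg1, of succinyl-CoA ligase, differed by -0.44 (SE 0.23) and Sdhd, of succinate dehydrogenase, by -0.30 (SE 0.16) at 1428235_at but by 0.0064 (SE 0.14) at its brighter probe set, 1437489_x_at. Dlst, the E2 partner of Ogdh in the 2-oxoglutarate dehydrogenase complex, gave 0.79 (SE 0.34) at 1437775_at but -0.26 (SE 0.17) at its brightest probe set, 1423710_at. Its other probe sets gave -0.38 (SE 0.32) and 0.18 (SE 0.14), so Dlst had 2 lower and 2 higher. Sdha, also of succinate dehydrogenase, was lower at its bright probe sets, by -0.43 (SE 0.24) at 1426688_at and -0.25 (SE 0.27) at 1426689_s_at, and higher at its dim ones, by 0.48 (SE 0.32) at 1433292_at and 0.66 (SE 0.49) at 1433293_at. Idh3g, the other subunit gene of the enzyme of Idh3a and Idh3b, gave -0.23 (SE 0.15) and -0.19 (SE 0.23) at its probe sets.

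Genes of glutamate and 2-oxoglutarate supply were split, 16 lower and 14 higher of 30, with a median of -0.04. Got1, the cytosolic aspartate aminotransferase, read 7.88, 7.86 and 7.25 in WT and 6.98, 7.14 and 6.64 in Tet1 KO, which differed by -0.74 (SE 0.24, an unadjusted limma p of 0.0177 and an adjusted p of 0.686). Bcat2, a branched-chain aminotransferase, differed by -0.52 (SE 0.24). Gpt2, the mitochondrial alanine aminotransferase, had 4 probe sets that went both ways. They gave 0.20 under the bacterial control level, -0.86 (SE 0.59) at 1438385_s_at, where Tet1 KO replicate 1 was at -2.12 from the WT mean, and 0.99 (SE 0.97) and 0.92 (SE 1.18) at the others, where Tet1 KO replicate 2 alone was 3.45 and 3.93 above it. D2hgdh, which removes D-2-hydroxyglutarate, gave 0.06 (SE 0.25) and 0.04 (SE 0.34).

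Of the 24 probe sets of mitochondrial carriers and outlets of the cycle, 14 had lower and 10 higher means, and the median difference was -0.04. At an unadjusted p under 0.05, 3 were lower, or 12.5%, and 0 higher, beside 3.58% lower and 3.23% higher over all probe sets tested. Slc25a11, the carrier that exchanges 2-oxoglutarate for malate across the inner mitochondrial membrane, had the tightest groups: 8.29, 8.46 and 8.35 in WT and 7.89, 7.94 and 7.87 in Tet1 KO. Its difference was -0.47 (SE 0.14, an unadjusted limma p of 0.0124 and an adjusted p of 0.686). The citrate carrier gene Slc25a1 read 6.76, 7.12 and 6.82 in WT and 6.45, 6.26 and 6.23 in Tet1 KO, which differed by -0.59 (SE 0.17). The groups did not overlap at either carrier. This held for 12.5% of the list and for 16.2% of all probe sets tested. On the higher side Me3 differed by 0.28 under the bacterial control level and an Acly probe set, 1439459_x_at, by 0.46 (SE 0.29), while another Acly probe set under that level, 1446315_at, gave -0.48 and was the last of the 3. In all, 2 Acly probe sets had lower and 4 higher means.

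A list of other enzymes that use 2-oxoglutarate as a cosubstrate held 60 probe sets of 30 genes, without the Tet genes and the Kdm histone demethylase genes. Of these probe sets, 38 had lower and 22 higher means (median difference -0.08). At an unadjusted p under 0.05 there were 6 lower, of 5 genes, or 10% of the list, and 0 higher. Over all probe sets tested 3.58% were lower and 3.23% higher by that threshold. Of those above the bacterial control level 4.92% were lower and 2.37% higher. The groups did not overlap at 18.3% of the list and at 16.2% of all probe sets tested. Egln3, a prolyl hydroxylase of the hypoxia response, read 7.75, 7.64 and 7.63 in WT and 7.11, 6.19 and 6.99 in Tet1 KO at 1418649_at, a difference of -0.91 (SE 0.26, an unadjusted limma p of 0.0112 and an adjusted p of 0.686). Its other probe set, 1418648_at, gave 0.42 (SE 0.21), so the gene had no single direction. Alkbh4, an AlkB-family dioxygenase, differed by -0.87 (SE 0.21) at 1453301_a_at, by -1.30 (SE 0.48) at 1429850_x_at and by -0.32 (SE 0.16) at 1451432_x_at, with no overlap between the groups at any of these. The remaining 3 probe sets at that level were of Tmlhe, Alkbh8 and Alkbh7. On the higher side, Plod1 1445893_at at 0.37 and Bbox1 1459030_at at 0.29 lay under the bacterial control level in WT.

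**Figure D4:**
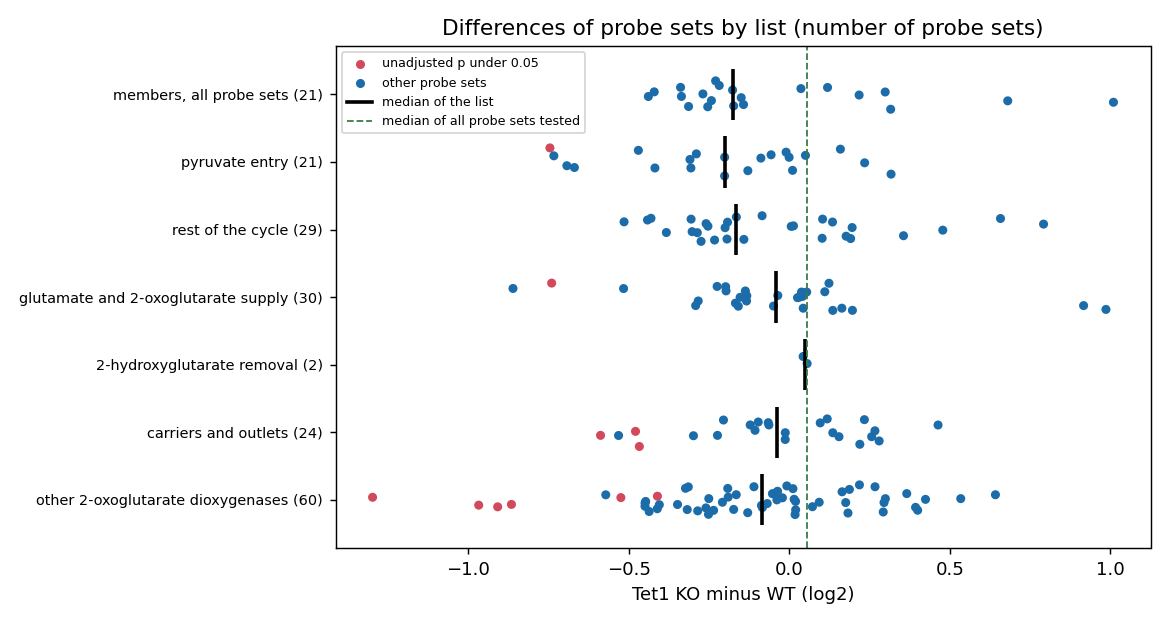
Tet1 KO minus WT difference (horizontal axis, log2) of each probe set of the 9 member genes and of the other pathway lists (rows, spread vertically for visibility), with red points at an unadjusted limma p under 0.05 and black bars at list medians. The 11 red points all lie below 0 and belong to the pathway lists, and none belongs to the members.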

How the data were processed

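Total RNA from sorted LSK cells, 125 ng per sample, was copied to biotin-labelled cDNA and hybridised to Affymetrix arrays, per the labels' protocols. The deposited table held log2 intensities for 45101 probe sets on 6 arrays. The log2 scale was inferred from their range, and the sources used here do not give the authors' background correction or normalization. Values were used as deposited. A platform annotation gave the gene names: of all probe sets, 34958 had 1 gene symbol, 932 several and 9211 none. Of the 34958, 34754 matched a RefSeq gene of GRCm38.p6 by identifier, the 21 member probe sets among them.

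Tet1 KO was compared with WT in limma 3.58.1 (R 4.3.3, lmFit and eBayes) over the 45037 probe sets other than 64 controls, two-sided, with genotype as the only term and Benjamini-Hochberg adjustment. Standard errors and 95% intervals are those of the moderated fit. The bacterial control level of 4.39 averages, over the 6 arrays, the top reading among 27 bacterial control probe sets. Precision is limited by 3 arrays per group. The fit was checked on simulated data. The members, gene lists, motifs and tests were chosen with earlier results of these data known. All probe sets of the members are given, and of each pathway list the 2 with the smallest p in each direction, with a few others chosen after their values were seen. Alternatives were 3 scalings, 2 filters on level, 1 probe set per gene, 2 variance models, array weights, a replicate block and the omission of each array. A covariate for arrays low in Xist was added after seeing the data. Plots were made in matplotlib 3.10.9.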

Additional observations from a re-analysis of the deposited data

How the results depend on the processing

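No member probe set passed the adjusted limma threshold in any of the 17 alternatives run. The count at an unadjusted p under 0.05, which was 0, became 2 with array weights (Idh3b 1418885_a_at and Ogdh 1451274_at) and 0 to 3 when an array was left out, where the shares over all probe sets were 7.53% and 3.46% to 10.3%. The median difference of -0.18 became -0.064 with cyclic loess, -0.11 with array weights and -0.20 to -0.030 when an array was left out. The 3 probe sets without overlap became 1 with quantile normalization, 0 with cyclic loess and 1 of 9 with 1 probe set per gene, and 4 to 7 when an array was left out, which leaves fewer arrays to separate. The shares over all probe sets were then 13%, 12.9%, 17.1% and 23.1% to 31.8%. Of the 76 other pathway genes, 6 passed at an unadjusted p under 0.05 with 1 probe set per gene. Of their 166 probe sets, 7 to 19 passed when an array was left out. Same-numbered arrays had correlations of deviations between 0.0012 and 0.0027, beside -0.0104 to 0.0086 for the others. With 3 arrays per group these values cannot decide whether the numbers mark pairs. Both arrays low in Xist were numbered 3. With the replicate block the member counts stayed at 0, the median at -0.18, and 9 pathway probe sets passed.

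Of 345 single differences under alternatives, 7 had the other sign, at 5 probe sets. With array weights, Idh1 1419821_s_at gave 0.061 and Ogdh 1445632_at gave 0.074. When an array was left out, the ranges were -0.32 to 0.17 for Idh1 1419821_s_at, -0.049 to 0.28 for Idh1 1422433_s_at, -0.057 to 1.73 for Idh3a 1422500_at, -0.77 to 0.18 for Ogdh 1445632_at and -0.15 to 0.21 for Cs 1450667_a_at. The cause of these changes was not tested. The other 16 probe sets kept their sign in every alternative that measured them. With 3 arrays per group, differences of the size seen at Idh3b, Ogdh and Cs had intervals that include 0.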
